A study of Mus musculus with 8 samples.

Results

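Amino acid transporters of the solute carrier (Slc) superfamily were examined in mouse hepatocytes, the main parenchymal cells of the liver, kept static or placed under shear stress, which is the drag of a moving fluid along a cell surface. The members were all genes of the families Slc1, Slc3, Slc6, Slc7, Slc36, Slc38 and Slc43 in the deposited tables, without Slc6a6, Slc6a12, Slc7a11 and Slc38a2, which the selection left out. This gave 51 of the 17276 genes listed. The selection was by name alone, so it also held carriers of creatine and monoamines (Slc6a8 and Slc6a4) and Slc7a6os, a gene named for its position opposite Slc7a6 that encodes no member of the transporter family. All cells were from wild-type male C57BL/6N mice aged 6 to 8 weeks, and both groups, static and shear stress, had 4 libraries with the replicate numbers 1 to 4. The labels state no flow rate, force or exposure time, and they do not tie libraries to separate animals or cultures. The p-values therefore describe the spread between these libraries, which may be technical.

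Amino acids cross the plasma membrane on carriers that differ in substrate and driving force. Slc7 light chains form a transporter only when joined by a disulphide bond to an Slc3 heavy chain, which carries the pair to the cell surface. Most Slc38 and Slc6 carriers, and the glutamate carriers of Slc1, use the sodium gradient to concentrate their substrates. Light chain pairs and the neutral carriers of Slc1 mostly exchange an amino acid inside for another outside. In liver, uptake of glutamine, alanine and other neutral amino acids feeds gluconeogenesis and the urea cycle, and some carriers sit on lysosomes, where amino acids are sensed by the mTORC1 kinase complex.

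The libraries held between 15067056 and 17935566 estimated counts, and 3 counts corresponded to between 0.157 and 0.227 normalised CPM (counts scaled to a common total). Static and shear stress libraries lay apart on the leading principal component, which held 65.8% of the variance. Of 11747 tested genes, 48.6% differed between the groups at an adjusted p under 0.05 (edgeR quasi-likelihood test, Benjamini-Hochberg), 24.9% higher and 23.7% lower under shear stress. The trimmed mean (TMM) factors used here put 51.2% of these calls upward. That share was 64.8% when scaled by the upper quartile, 73.0% by library totals and 73.5% in FPKM. The median over all genes shifted upward by 0.14, 0.23 and 0.18 (log2) in turn, and small changes are to be read against that shift. All 10 hepatocyte markers examined were detected, and 6 of the 10 fell under shear stress (Alb from 62210.8 ± 8130.6 to 41826.7 ± 7151 CPM, SD, n = 4). Summed endothelial markers ranged from 12.1 to 27.3 CPM in static and from 9.03 to 26.9 CPM in shear stress libraries, stellate and fibroblast markers from 6.0 to 12.2 and from 7.16 to 10.2 CPM, and lymphocyte markers from 2.4 to 2.88 and from 0.0566 to 0.47 CPM. C1qc and Ms4a1 had no count in static libraries, and Cd4 had none in shear stress libraries. Among the markers of other cells, Pecam1 fell from 10.02 ± 4.24 to 1.87 ± 1.38 CPM and Cd79a from 1.93 ± 0.174 to 0.119 ± 0.201 CPM. Macrophage markers summed to between 22.5 and 56.1 CPM and between 16.9 and 57.0 CPM, nearly all of it Cd68, and 8 of the 9 listed in the files had a mean under 1 CPM. Bile duct markers, mostly Spp1, summed to between 146 and 1331.9 CPM in static and between 239 and 1735.2 CPM in shear stress libraries. The part of other cells in the transporter results was not tested.

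Per transcript length, a few carriers made up most of the messages of the 51 members. In deposited TPM, which scales each gene by its length within a library, Slc3a2, the 4F2 heavy chain (CD98), was the highest member in all 8 libraries, at 484 ± 52.6 TPM in static and 493 ± 37.2 TPM in shear stress libraries (SD, n = 4). It took 44.9% ± 4.67 of the TPM summed over the 51 members in static and 45.6% ± 2.05 in shear stress libraries. Next in static libraries came the glycine transporter Slc6a9 (154 ± 27.2 TPM), the glutamine transporter Slc38a3 (127 ± 47.8 TPM) and Slc38a4 (88.6 ± 20.3 TPM), which carries neutral and cationic amino acids. Slc6a9 was above Slc38a3 in 3 of the 4 static libraries, so these neighbours were not separated by their spread. In shear stress libraries Slc38a3 (127 ± 29.5 TPM) was above Slc6a9 (80.1 ± 16.4 TPM) in 4 of 4. The creatine transporter Slc6a8 moved from rank 7 to rank 5, but was above the next gene, Slc38a10, in only 2 of the 4 shear stress libraries. Slc7a5 moved from rank 14 (7.66 TPM) to rank 10 (22.6 ± 1.08 TPM). The summed TPM of all members was 1077.8 ± 52.0 in static and 1080.1 ± 55.2 in shear stress libraries, a difference smaller than the spread within either group. This sum and the shares and ranks above leave out the 4 carriers outside the selection. Their mean TPM in static and shear stress libraries was 378 and 58.7 (Slc38a2), 84.6 and 30.4 (Slc6a6), 43.6 and 47.0 (Slc7a11), and 10.04 and 8.98 (Slc6a12). TPM sums to the same total in every library. In normalised CPM the member sum was 2304.9 ± 183 in static libraries and 1991.7 ± 135 under shear stress, with overlapping groups, and the sum over all tested genes was also lower under shear stress on that scale.

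**Figure D1:**
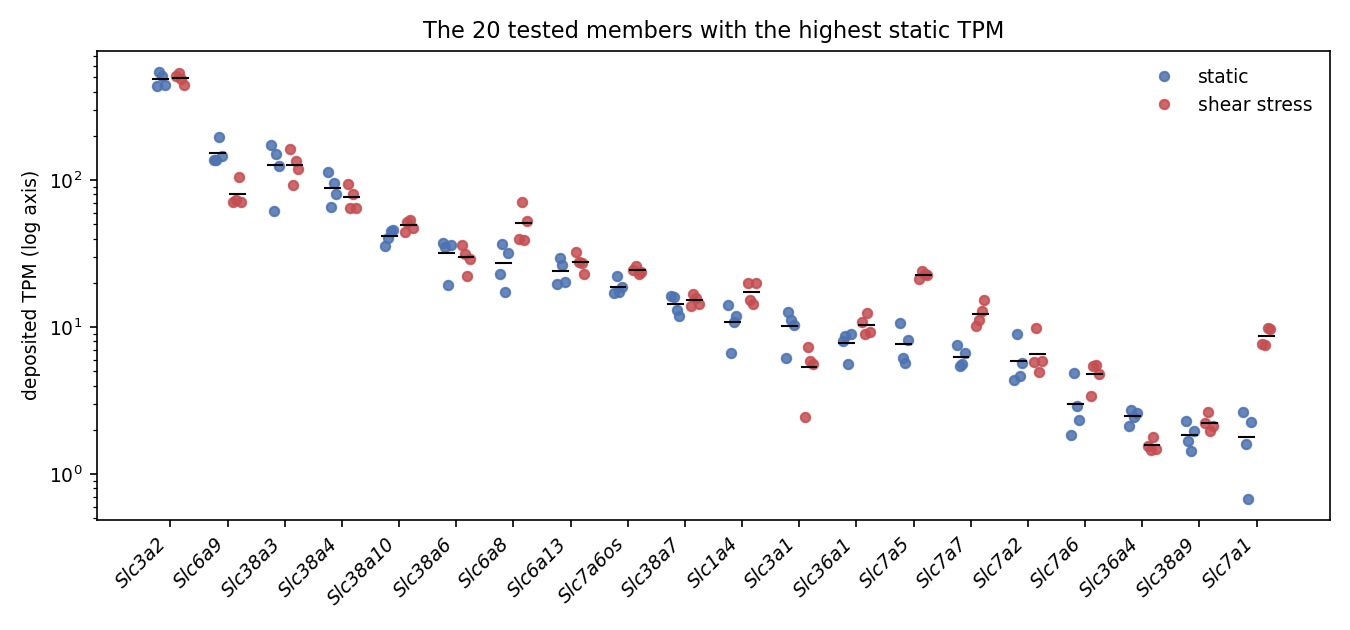
Deposited TPM (log axis) of the 20 tested members with the highest mean in static libraries, with 1 point per library and a bar at the group mean (n = 4 per group). Slc3a2 is highest in every library, Slc6a9 is lower in shear stress libraries (80.1 TPM) than in static ones (154 TPM), and Slc7a1 and Slc7a5 are higher.

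The next comparison asked which transporter messages differed between shear stress and static cells. Of the 51 members, 30 had enough counts to be tested, 8 rose, 3 fell and 19 were not called. The rises were those of the light chains Slc7a5, Slc7a7 and Slc7a15, the cationic carrier Slc7a1, the facilitated carriers Slc43a2 and Slc43a3, and the Slc6 carriers Slc6a8 and Slc6a19. The falls were those of Slc6a9, the heavy chain Slc3a1 and the Slc36 family carrier Slc36a4. Rises thus made up 26.7% of the tested members, beside 24.9% of all genes. Falls were 3 of 30, beside 23.7% of all genes, and whether the members differ from all genes was not tested. The median log2 fold change was -0.01 for the members and -0.01 for all tested genes. Changes of at least 2-fold numbered 6 upward and 2 downward, where 10.5% and 6.83% of all tested genes met that rule. Slc6a19 and Slc7a15, both among these rises, passed the count filter through the shear stress libraries alone. Their static libraries held at most 2 and 8 counts. The numbers of rises and falls thus lean on the filter. With no filter on low counts, 7 members rose and 6 fell, beside 17.2% and 18.3% of all genes. The groups did not overlap for 9 of the 30 tested members, against 45.3% of all tested genes. These calls come from a fit that leaves out the replicate number, although same-numbered libraries were correlated. With the number as a block, 10 members rose and 5 fell, beside 30.1% and 31.0% of all tested genes.

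All 11 called members kept their direction in every one of the 16 alternative fits that tested them, and 8 of them stayed called in each of those. The exceptions were Slc7a7, Slc6a8 and Slc43a3. Slc6a19, Slc7a15 and Slc43a3 were not tested with the filter at 5 CPM or with FPKM. Without shear stress replicate 4, 5 members rose and 3 fell, with 39.2% of all genes called (20.5% higher, 18.7% lower). Without static replicate 2, 8 rose and 5 fell, with Slc7a6, Slc38a1 and Slc38a4 added and Slc43a3 lost, and with 46.2% of all genes called (23.8% higher, 22.4% lower). With library totals 11 rose and 3 fell, Slc1a4, Slc43a1 and Slc7a6os being added, with 48.5% of all genes called (35.4% higher, 13.1% lower). A filter at a mean of 5 CPM tested 21 members, of which 5 rose and 3 fell (48.1% of all genes called, 25.5% higher and 22.6% lower). With FPKM 23 were tested, 9 rose and 3 fell (48.1% of all genes called, 35.4% higher and 12.8% lower). Upper quartile factors and DESeq2 each gave 8 rises and 3 falls, with 48.0% (31.1% higher, 16.9% lower) and 52.0% (26.0% higher, 26.0% lower) of all genes called. Without shear stress replicate 2, 7 rose and 3 fell (41.8% of all genes called, 21.4% higher and 20.4% lower). With no filter on low counts, 50 were tested, 7 rose and 6 fell (35.5% of all genes called, 17.2% higher and 18.3% lower). With the replicate number as a block, 10 members rose and 5 fell, against 30.1% and 31.0% of all tested genes, so 50.0% of the tested members were called against 61.1%.

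**Figure D2:**
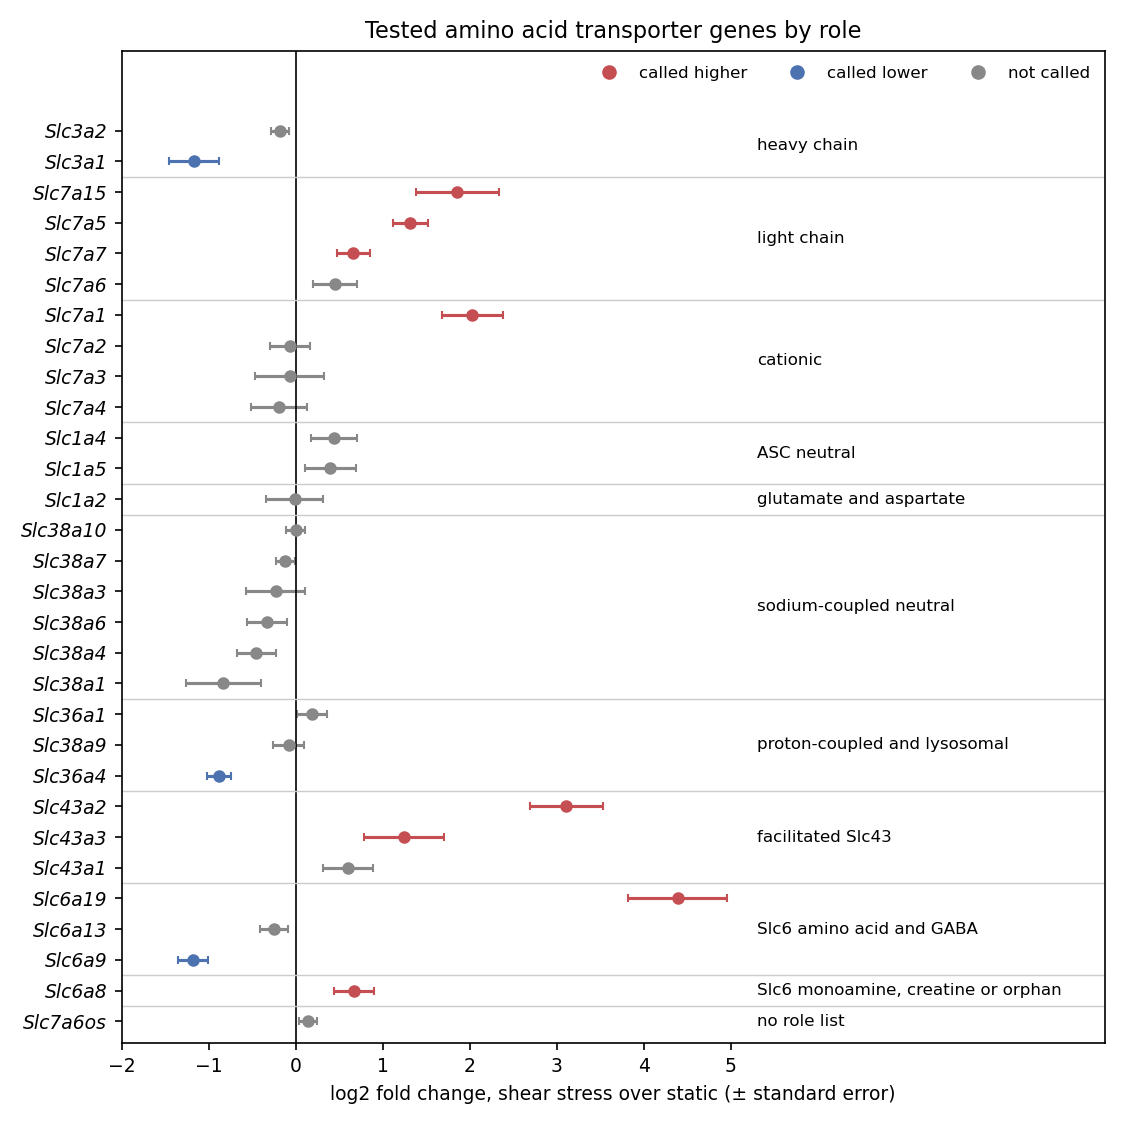
Log2 fold change of shear stress over static for the 30 tested members, grouped by role, with bars of 1 standard error (4 libraries per group). Points right of 0 are higher under shear stress. The light chains and Slc43 carriers all lie to the right, the tested sodium-coupled neutral carriers lie at or left of 0 with these TMM factors (Slc38a7 and Slc38a10 lie right of it with library totals), and Slc6a19 lies farthest right at 4.39.

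Both heavy chains were measured. Slc3a2 (Gene ID 17254; chromosome 19, 8706882 to 8723369, minus strand, GRCm38) was at 717, 845, 891 and 772 CPM in static replicates 1 to 4 and at 765, 716, 698 and 661 CPM in shear stress replicates 1 to 4. The groups overlapped, and the difference (-0.18 ± 0.10 on the log2 scale, SE) was not called (adjusted p = 0.149). It was 0.04 with library totals, so its sign depended on the scaling. The rBAT heavy chain Slc3a1 (chromosome 17, 85028347 to 85064241, plus strand), which serves cystine and cationic amino acid uptake in kidney and gut, fell 2.25-fold (-1.17 ± 0.29, adjusted p = 0.00891). Its static libraries held 10.7, 19.2, 19.2 and 17.6 CPM and its shear stress libraries 3.7, 9.55, 8.14 and 8.15 CPM, without overlap. Slc3a1 overlaps Prepl on the opposite strand, which rose from 17.1 to 27.7 CPM (0.69, adjusted p = 0.00163). Whether counting used the strand is not given in the sources used here, so reads in the overlap could not be told apart. In bulk samples, fewer cells that express a gene and less of its RNA per cell cannot be told apart.

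Of the light chains, 7 were listed, 4 were tested, 3 rose and Slc7a6 was not called. Among all tested genes 24.9% rose, and whether the light chains differ from all genes was not tested. Slc7a5 (LAT1; chromosome 8, 121881146 to 121907686, minus strand) imports leucine and other large neutral amino acids. It was at 29.1, 15, 15.4 and 22.1 CPM in static libraries, and under shear stress at 50.9, 49.6, 50.2 and 52.5 CPM. The shear stress libraries were nearly level and all lay above the static ones, and the rise was 2.49-fold (1.32 ± 0.20, adjusted p = 0.000764). Slc7a7 (y+LAT1; chromosome 14, 54369442 to 54420068, minus strand) exports cationic amino acids in exchange for neutral ones. It was at 10.9, 6.81, 8.64 and 9.6 CPM in static and at 12.3, 11.5, 15.2 and 17.7 CPM in shear stress libraries, a rise of 1.57-fold (0.66 ± 0.19, adjusted p = 0.0182). The groups did not overlap, but the gap between 10.9 and 11.5 CPM was narrow, and without shear stress replicate 4 the gene was not called (0.53, adjusted p = 0.0583). Slc7a7 overlaps Oxa1l on the opposite strand, which was at 72.1 and 67.5 CPM and was not called.

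The remaining light chains were less abundant. Slc7a15, grouped with the light chains, rose 3.63-fold (1.86 ± 0.48, adjusted p = 0.0104), from 0.308, 0.175, 0.0758 and 0.48 CPM to 1.5, 0.731, 0.923 and 0.793 CPM. These values rest on between 1 and 8 counts per static and between 14 and 26 per shear stress library. Slc7a15 entered the test through the shear stress libraries alone. Slc7a6 (y+LAT2) averaged 8.41 ± 3.15 CPM in static libraries and 11.5 ± 1.86 CPM under shear stress. It was not called (0.45 ± 0.25, adjusted p = 0.162), but was called with the replicate block (0.50, adjusted p = 0.029), in which 3 of 4 pairs were higher. It was also called without static replicate 2 (0.73, adjusted p = 0.0205) and with FPKM (adjusted p = 0.0415). Slc7a8 and Slc7a10 had no more than 3 counts in any library. Slc7a9, the partner of Slc3a1, was too low to be tested, with 36 counts over the static and 2 over the shear stress libraries. The ratio of static to shear stress, scaled by normalised library size, was 20.3, with an exact 95% interval from 5.23 to 174 that covers counting error only.

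Against the heavy chain, the light chains that pair with it were a small share. The TPM of Slc7a5, Slc7a6, Slc7a7, Slc7a8 and Slc7a10 summed to 19.99, 16.5, 14.1 and 17.3 in static and to 34.9, 40.6, 41.2 and 42.5 in shear stress libraries. That was 3.56% ± 0.83 of the Slc3a2 TPM in static libraries and 8.13% ± 1.15 of it under shear stress (SD, n = 4), and every shear stress library lay above every static one. With Slc7a11, the cystine and glutamate exchanger that also pairs with Slc3a2 but lies outside the members, the share was 12.8% ± 4.75 and 17.8% ± 3.96, and the groups overlapped.

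Of the cationic carriers, which need no heavy chain, 4 of 5 were tested and 1 rose, beside 24.9% of all tested genes. Slc7a1 (CAT1; chromosome 5, 148327410 to 148399904, minus strand) is the widespread arginine and lysine importer, low in normal liver. It was at 15.5, 8.2, 3.94 and 12.9 CPM in static and at 39.2, 33.2, 46.0 and 48.6 CPM in shear stress libraries. Every shear stress library was above every static one, and the rise was 4.09-fold (2.03 ± 0.35, adjusted p = 0.00157). Slc7a2 (CAT2; chromosome 8, 40862341 to 40922070, plus strand), which has a liver form of low affinity, was at 27.8, 49.6, 29.1 and 35.2 CPM and at 31.9, 47.1, 24.9 and 31.8 CPM. It was not called (-0.06 ± 0.23, adjusted p = 0.841), and its sign flipped under upper quartile factors, library totals and FPKM (0.08, 0.16 and 0.13). In TPM, Slc7a1 stood at 33.2% ± 21.3 of Slc7a2 in static and at 144% ± 52.2 in shear stress libraries, where it exceeded Slc7a2 in 3 of 4. Slc7a3 and Slc7a4 had means between 1.26 and 2.34 CPM in both groups and were not called, and the orphan Slc7a14, with at most 8.94 counts in a library, was not tested.

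**Figure D3:**
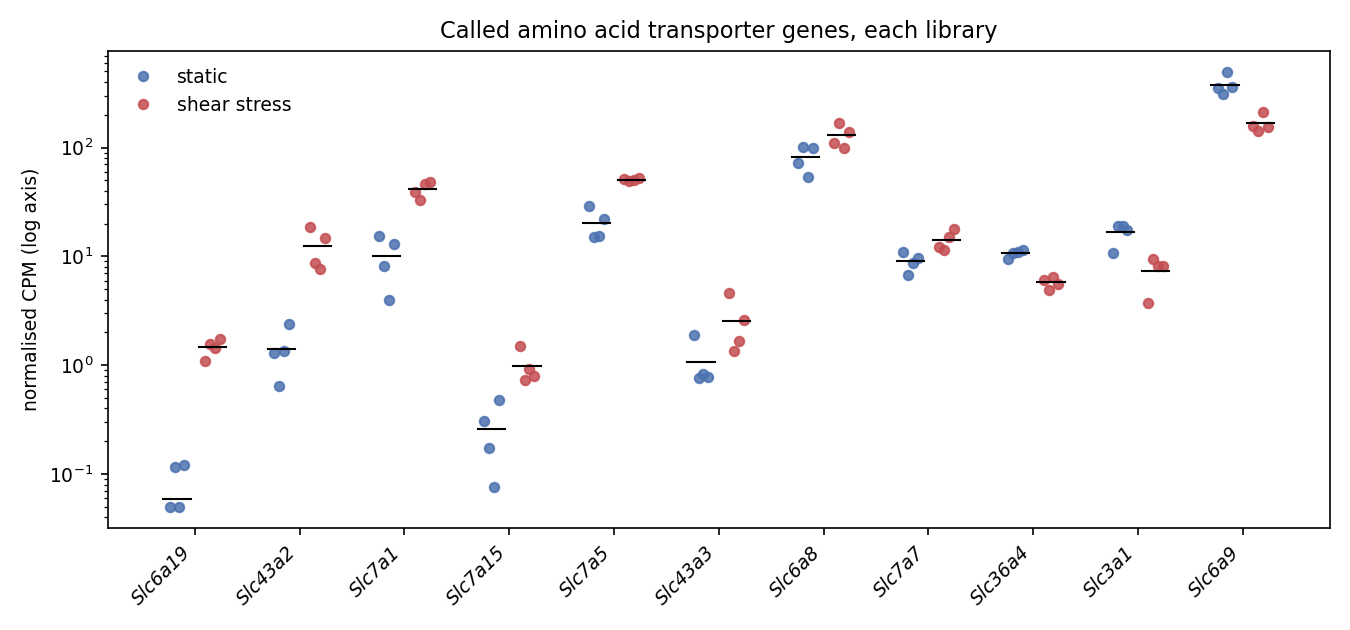
Normalised CPM (log axis) of the 11 called members in each library, with a bar at the group mean (n = 4 per group), ordered from the largest rise to the largest fall. The 2 static libraries of Slc6a19 without a count are drawn at 0.05. The groups overlap for Slc43a3 and Slc6a8 alone.

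The Slc43 carriers move large neutral amino acids down their gradient without sodium, except Slc43a3, which carries purine nucleobases. Slc43a2 (LAT4; chromosome 11, 75529915 to 75577575, plus strand) was at 1.29, 0.64, 1.36 and 2.4 CPM in static and at 18.5, 8.61, 7.73 and 14.6 CPM in shear stress libraries. This 8.64-fold rise (3.11 ± 0.42, adjusted p = 0.000423) was seen in all 4 same-numbered pairs, between 5.35-fold and 13.4-fold. Slc43a3 rose from 1.91, 0.756, 0.834 and 0.78 CPM to 4.57, 1.36, 1.67 and 2.6 CPM (2.37-fold, 1.24 ± 0.46, adjusted p = 0.0492). Its groups overlapped because static replicate 1 stood above shear stress replicates 2 and 3. The call was lost when static replicate 2 (adjusted p = 0.114), 3 (0.107) or 4 (0.113) was left out. It was also lost when shear stress replicate 1 (log2 fold change 0.82, adjusted p = 0.144) or 4 (0.0898) was. Slc43a1 (LAT3) averaged 1.83 ± 0.533 and 2.78 ± 0.81 CPM and was not called (0.60 ± 0.29, adjusted p = 0.118), though it was with library totals (adjusted p = 0.0419) and FPKM (0.036).

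The Slc38 family, mostly sodium-coupled carriers of glutamine, alanine and other small neutral amino acids, had 10 members besides Slc38a2. That gene, which the selection left out, was called lower under shear stress. It went from 1349.9 ± 52.1 CPM in static to 178 ± 11.5 CPM in shear stress libraries (adjusted p = 4.54e-07). Of the 10 members, 7 were tested and none was called by DESeq2 or by the main edgeR fit, which leaves out the replicate number. None of the 7 had an unadjusted p under 0.05 in the main fit. Over all tested genes, DESeq2 called 52.0% and the main fit 48.6%. Slc38a3 (SNAT3; chromosome 9, 107651154 to 107668968, minus strand), which moves glutamine in and out of hepatocytes, was at 321, 101, 277 and 227 CPM in static and at 265, 130.4, 203 and 188 CPM in shear stress libraries. The number 2 libraries were lowest in both groups, and the difference was not called (-0.23 ± 0.34, adjusted p = 0.59; 0.06 with FPKM). Slc38a4 (SNAT4; chromosome 15, 96994816 to 97055956, minus strand) was at 352, 179, 290.5 and 243 CPM and at 256, 152, 201 and 171 CPM. It was lower in each of the 4 same-numbered pairs and was called with the replicate block (-0.43, adjusted p = 0.000685) but not without it (-0.45 ± 0.22, adjusted p = 0.12). It was also called without static replicate 2 (-0.60, adjusted p = 0.0334). Slc38a6 was at 141, 116, 71.8 and 134 CPM and at 119, 89.7, 66.9 and 92.9 CPM, with a fall in 4 of 4 pairs, called with the block (-0.31, adjusted p = 0.0106) and not without it (-0.33 ± 0.23, adjusted p = 0.259). Without static replicate 3 it was called as well (-0.50, adjusted p = 0.0462).

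The remaining Slc38 members were not called either. Slc38a7, a lysosomal glutamine and asparagine exporter, was at 40.9, 36, 32.7 and 29.8 CPM and at 31.7, 33.0, 32.7 and 31.2 CPM (-0.12 ± 0.11, adjusted p = 0.421). Slc38a10 was at 117, 116, 148 and 149.5 CPM and at 127, 129, 141 and 133 CPM (adjusted p = 0.978). The shear stress libraries of both genes lay within the range of the static ones, and the signs flipped with the scaling, to 0.11 and 0.22 with library totals. Slc38a1 (SNAT1) was at 1.91 ± 0.9 and 1.06 ± 0.257 CPM and was not called (-0.83 ± 0.43, adjusted p = 0.133), though it was called without static replicate 2 (-1.14, adjusted p = 0.0121). Slc38a5, Slc38a8 and Slc38a11 were too low to be tested.

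**Figure D4:**
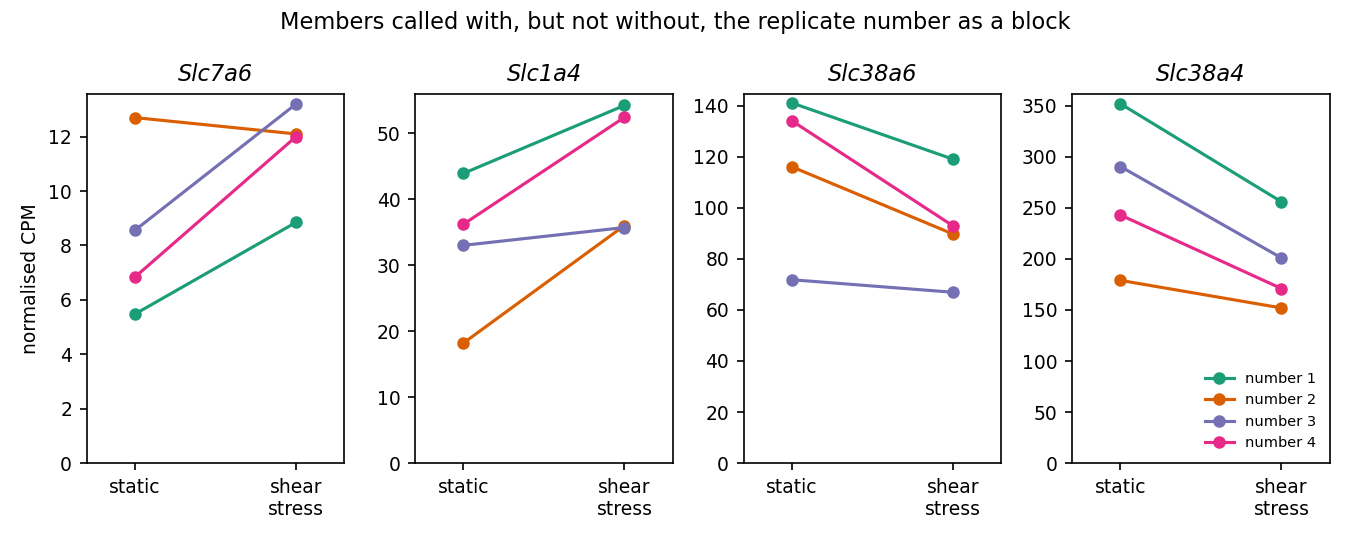
Normalised CPM of the 4 members called with the replicate number as a block but not without it, with 1 line for each number that a static and a shear stress library share. Slc38a4 and Slc38a6 are lower and Slc1a4 is higher under shear stress in 4 of 4 pairs, and Slc7a6 is higher in 3 of 4.

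The neutral exchangers of the Slc1 family were both tested, and neither was called by DESeq2 or by the main edgeR fit. Neither had an unadjusted p under 0.05 in that fit, which leaves out the replicate number. Over all tested genes, DESeq2 called 52.0% and the main fit 48.6%. Slc1a4 (ASCT1; chromosome 11, 20302180 to 20332713, minus strand), which exchanges alanine, serine and cysteine, was at 43.9, 18.2, 33.0 and 36.2 CPM in static and at 54.2, 36, 35.7 and 52.4 CPM in shear stress libraries. The groups overlapped (0.44 ± 0.26, adjusted p = 0.187), yet all 4 pairs were higher and the gene was called with the replicate block (0.48, adjusted p = 0.0115). It was also called with library totals (adjusted p = 0.0467) and with FPKM (0.0426). Slc1a5 (ASCT2), the glutamine exchanger of proliferating cells, averaged only 1.35 ± 0.216 and 1.79 ± 0.563 CPM (0.40 ± 0.29, adjusted p = 0.273). Of the 5 glutamate and aspartate carriers, only Slc1a2 (GLT-1) could be tested, at 2.32 ± 0.541 and 2.31 ± 1 CPM (adjusted p = 0.988), and Slc1a1, Slc1a3, Slc1a6 and Slc1a7 had no more than 2 counts in any library.

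Slc36a1, Slc36a4 and Slc38a9 were grouped as Slc36 family carriers or lysosomal sensors of amino acids, and 1 of these 3 fell. Among all tested genes 23.7% fell. Slc38a7, also lysosomal, is described with its family. Slc36a4 (PAT4; chromosome 9, 15709738 to 15742388, plus strand), a high-affinity proline and tryptophan carrier, was at 9.49, 10.8, 10.9 and 11.4 CPM in static and at 6.08, 4.96, 6.46 and 5.6 CPM in shear stress libraries. The libraries within each group were close together and the groups did not overlap, with a fall of 1.84-fold (-0.88 ± 0.14, adjusted p = 0.00102). Slc36a1 (PAT1) was at 34.3, 32.5, 23.6 and 37.1 CPM and at 40.6, 29.0, 42.4 and 33.4 CPM (0.19 ± 0.17, adjusted p = 0.376). Slc38a9, the lysosomal arginine sensor of mTORC1, was at 15, 9.31, 9.63 and 12.2 CPM and at 11.9, 11.6, 9.23 and 11 CPM (-0.08 ± 0.18, adjusted p = 0.745; 0.15 with library totals). For both genes the groups overlapped and no difference beyond the spread was detectable.

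Among Slc6 carriers of amino acids and GABA, 3 of 10 were tested, 1 fell and 1 rose, beside 23.7% and 24.9% of all tested genes. Slc6a9 (GlyT1; chromosome 4, 117835258 to 117869305, plus strand), the sodium- and chloride-coupled glycine importer, was at 353, 309, 489.7 and 361 CPM in static and at 158, 142, 213 and 153 CPM in shear stress libraries. It fell 2.27-fold (-1.18 ± 0.17, adjusted p = 0.000575), and the fall in the 4 pairs lay between 2.18-fold and 2.37-fold. Slc6a19 (B0AT1; chromosome 13, 73679745 to 73700780, minus strand), the neutral amino acid importer of gut and kidney, had 0, 2, 0 and 2 counts in static and 19, 30, 25 and 31 counts in shear stress libraries. Shear stress libraries thus held between 1.1 and 1.75 CPM (4.39 ± 0.57, adjusted p = 0.000329), and Slc6a19 entered the test through these libraries alone. The ratio of summed counts, scaled by normalised library size, was 23.3. Its exact 95% counting interval was from 8.82 to 87.0, since the static value rests on 4 counts. Slc6a13 (GAT2), which carries GABA and taurine in liver, was at 29.9, 41.4, 39.7 and 30.2 CPM and at 36.1, 30.01, 28.7 and 24.1 CPM (-0.25 ± 0.16, adjusted p = 0.221; 0.20 with FPKM), with overlapping groups.

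The remaining members carry no amino acid or were barely detected. Slc6a8, the creatine importer (chromosome X, 73673133 to 73682502, plus strand), was at 71.8, 100.3, 53.5 and 98.7 CPM in static and at 109, 169, 98.9 and 139.9 CPM in shear stress libraries. It rose 1.59-fold (0.67 ± 0.23, adjusted p = 0.0376). The groups overlapped by a narrow margin, while all 4 pairs were higher, and the adjusted p with the block was 9.84e-05. The call was lost when static replicate 1 (adjusted p = 0.0879) or 3 (0.0725), or else shear stress replicate 2 (0.0958) or 4 (0.083), was left out. Slc7a6os was at 17.9, 20.8, 18.1 and 19.4 CPM and at 22.6, 21.0, 19.4 and 21.3 CPM and was not called (0.14 ± 0.10, adjusted p = 0.272), though it was with library totals (adjusted p = 0.0309) and FPKM (0.0224). Of the 21 members not tested, 17 stayed under 10 counts in every library and Slc6a21 was at 0 in all 8. The glycine carrier Slc6a5 had 46 counts over the static and 2 over the shear stress libraries. Their ratio, scaled by normalised library size, was 25.9 (exact 95% counting interval from 6.79 to 221). The serotonin transporter Slc6a4 had 37 and 8 counts. These 2 genes and Slc7a9 were called lower in the fit with no filter on low counts (adjusted p = 0.0018, 0.027 and 0.00435).

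Promoter windows from RefSeq (GRCm38.p6) were at hand for 40 of the 51 members, among them 5 of the 8 that rose and the 3 that fell. None was at hand for Slc7a5, Slc6a8 and Slc43a3, which rose. The windows were searched on both strands for the letters TGATGNAA, the core of the C/EBP-ATF composite element through which the factor ATF4 acts on genes of the amino acid response. A match was found for 3 of these 40 members (7.5%), against 4.51% of all 27025 genes with a window and 3.97% of all windows of this length. Among tested genes it was 2 of 21 members against 269 of 9487 (2.84%). Those 3 were Slc7a7, Slc1a4 and Slc6a21, which was at 0. The windows of Slc7a7 (called higher) and Slc1a4 (not called in the main fit) are shown from 250 bases before the start to 10 after it. Matched letters are in capitals. Beside them stand windows of Slc7a1 and Slc43a2, which were called higher and hold no match. For Slc7a7 the window (chr14:54417935-54418194, minus strand) belongs to 1 of 5 listed starts and holds matches beginning at -141 and -1. For Slc1a4 (chr11:20332704-20332963, minus strand) a match on the opposite strand begins at -4. The window of Slc7a1 (chr5:148399895-148400154, minus strand) belongs to 1 of 2 listed starts, as does that of Slc43a2 (chr11:75531444-75531703, plus strand).
Slc7a7: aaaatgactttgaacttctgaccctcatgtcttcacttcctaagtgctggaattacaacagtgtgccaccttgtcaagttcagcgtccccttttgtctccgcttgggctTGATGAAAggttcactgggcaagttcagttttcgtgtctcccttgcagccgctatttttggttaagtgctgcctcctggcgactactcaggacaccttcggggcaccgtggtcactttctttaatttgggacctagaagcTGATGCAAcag
Slc1a4: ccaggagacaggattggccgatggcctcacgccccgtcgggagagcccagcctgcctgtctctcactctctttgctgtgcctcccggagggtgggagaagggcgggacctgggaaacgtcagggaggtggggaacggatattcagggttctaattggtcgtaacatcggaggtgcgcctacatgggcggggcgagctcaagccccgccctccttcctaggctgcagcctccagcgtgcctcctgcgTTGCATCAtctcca
Slc7a1: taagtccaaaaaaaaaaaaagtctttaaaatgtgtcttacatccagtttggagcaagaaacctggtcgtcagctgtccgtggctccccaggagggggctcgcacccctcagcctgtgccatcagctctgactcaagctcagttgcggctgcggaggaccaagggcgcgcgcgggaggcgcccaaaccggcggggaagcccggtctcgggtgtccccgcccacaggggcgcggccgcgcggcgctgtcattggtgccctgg
Slc43a2: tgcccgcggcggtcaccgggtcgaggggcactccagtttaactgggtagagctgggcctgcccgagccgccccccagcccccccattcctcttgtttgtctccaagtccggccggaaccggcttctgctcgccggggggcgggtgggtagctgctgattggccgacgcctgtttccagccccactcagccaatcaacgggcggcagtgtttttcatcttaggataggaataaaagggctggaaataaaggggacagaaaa
A match is a description of the letters and does not show binding.

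The 4 carriers that the selection left out gave these values on the same scale. Slc38a2 (SNAT2) went from 1349.9 ± 52.1 to 178 ± 11.5 CPM and the taurine transporter Slc6a6 from 399 ± 26.9 to 123 ± 16.4 CPM, both called lower, whereas Slc7a11 (319 ± 133 and 294 ± 76.8 CPM) and the betaine transporter Slc6a12 (18 ± 4.42 and 14.0 ± 5.2 CPM) were not called, Slc6a12 being called lower with the replicate block (adjusted p = 0.0183).

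Other genes of amino acid handling were read from lists beside the members. Of 18 listed carriers of amino acids, peptides or related solutes outside these families, 14 were tested, 2 rose and 5 fell, beside 24.9% and 23.7% of all tested genes, with a median log2 fold change of -0.46 against -0.01 for all genes. Slc15a4, a lysosomal histidine and peptide carrier, fell 3.48-fold from 35.2 ± 7.9 to 10.1 ± 1.56 CPM (adjusted p = 9.95e-05). Ctns, the lysosomal cystine exporter, fell 2.15-fold (adjusted p = 0.000302), and Slc25a13, a mitochondrial aspartate and glutamate carrier, fell 1.83-fold (adjusted p = 0.000757). Slc17a9, which is known as a carrier of nucleotides rather than amino acids, rose 3.12-fold to 9.79 ± 1.79 CPM (adjusted p = 0.000438).

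All 31 listed genes of mTORC1 and its amino acid sensing were tested, and 5 rose and 10 fell (median -0.06), beside 24.9% and 23.7% of all tested genes. Falls were those of Rragc, a GTPase that recruits mTORC1 to lysosomes (126 ± 13.4 to 61.5 ± 0.745 CPM, adjusted p = 7.28e-05), of Fnip1 and Flcn, which act together on it (3.16-fold and 1.97-fold), and of Lamtor3, a subunit of its lysosomal anchor (2.03-fold), among others. The 5 rises were those of Castor1 (3.71-fold), Mlst8 (1.72-fold), Nprl3 (1.61-fold), Rraga (1.46-fold) and Lamtor1 (1.36-fold), so the list moved in both directions. With library totals or FPKM, 9 of the list rose, where 35.4% of all genes did in either fit. Of 24 tested genes of the GCN2 kinase and ATF4 response to amino acid shortage, 5 rose and 9 fell (median -0.19), beside the same 24.9% and 23.7% of all tested genes. Trib3 rose 2.51-fold to 124 ± 12.9 CPM (adjusted p = 0.000182) and Ddit4 2.07-fold (adjusted p = 0.000109), while Ppp1r15a fell 3.64-fold (adjusted p = 0.000344) and Atf3 3.4-fold (adjusted p = 0.000368). Rises numbered 3 when static replicate 3 or 4, or else shear stress replicate 2 or 3, was left out.

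Of 39 enzymes of amino acid breakdown in liver, all were tested, 2 rose and 11 fell (median -0.43 against -0.01 for all genes), beside 24.9% and 23.7% of all tested genes. Glud1, the mitochondrial glutamate dehydrogenase, rose 1.83-fold from 702 ± 70.5 to 1287.7 ± 222 CPM (adjusted p = 0.000812). Prodh2 of hydroxyproline breakdown fell 1.76-fold (adjusted p = 0.0059), the alanine transaminase Gpt2 1.99-fold (adjusted p = 0.00793) and Gstz1 of tyrosine breakdown 1.35-fold (adjusted p = 0.0111). The number of falls depended on the setting. It was 22 under the replicate block, where 31.0% of all genes fell, and 18 with DESeq2, where 26.0% did. It was 7 without shear stress replicate 2 or 4 (20.4% and 18.7% of all genes), 6 with upper quartile factors (16.9%) and 4 with library totals or FPKM (13.1% and 12.8%). The 2 rises numbered 1 when static replicate 2 or 4, or else shear stress replicate 1, was left out. The hepatocyte markers beside this list fell in 6 of 10 cases, and whether the list moved apart from them was not tested.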

How the data were processed

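RNA of 8 libraries was sequenced on a DNBSEQ instrument after TRIzol extraction, per the labels' protocols. Tools listed in the submitters' processing notes are RSEM, Bowtie2 and HISAT, and the build is GRCm38 (mm10). The annotation and the use of strand in counting were not given in the sources used here. The read counts are expected counts that the authors estimated before deposit, and between 9.31% and 10.7% per library were not whole (tolerance 1e-09). The files also hold the authors' TPM and FPKM, as their headers name them. TPM was used to compare genes within libraries, FPKM for 1 alternative. File columns number the libraries differently from the titles, and the titles were used. RSEM divides shared reads by probability, so near-identical copies such as Slc6a20a and Slc6a20b are uncertain.

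Rounded counts were filtered with filterByExpr (11747 genes left), scaled with TMM and tested in edgeR 4.0.16 (R 4.3.3) by robust quasi-likelihood F tests, with Benjamini-Hochberg adjustment over all tested genes and a threshold of 0.05. Each standard error was taken as |log2 fold change| over the root of its F statistic. Pair ratios used a pseudocount of 0.1 CPM. Alternatives were other scalings, filters at 1 count in any library or a mean of 5 CPM, DESeq2 1.42.0, limma 3.58.1 on log2(FPKM + 1) with a mean FPKM of at least 1, a replicate block and leaving out each library. On simulated counts for the 11747 genes, edgeR called 31.3% of simulated 1.5-fold changes, 68.7% of those of 2-fold and 97.0% of those of 4-fold. Of its calls 5.07% were false, against 16.4% of those of DESeq2. The simulation changed few genes, none of low count, and its libraries were not paired. Its rates therefore need not hold for these data, where many genes differed and same-numbered libraries correlated.

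Both groups carry the same replicate numbers. After removing group means, same-numbered libraries correlated at 0.679, 0.642, 0.56 and 0.467 over 8446 genes, and different numbers at no more than -0.0178. Removing group means itself makes the latter negative on average once the former are positive. The same-numbered values alone thus pair the libraries, although no label gives the meaning of a number. The main fit does not use this pairing. Its biological coefficient of variation, the estimated spread between libraries, was 0.214, against 0.125 with the replicate block. No 2 libraries of a group agreed within counting noise (chi-square at least 47.8 per degree of freedom). Coordinates are RefSeq gene spans (GRCm38.p6) and strands are from GENCODE M21. The members and lists were chosen with earlier results of these data known. Values in every library are given for called members and for uncalled ones with a mean of at least 10 CPM. Up to 4 called genes by smallest p are named per list, and for mTORC1 sensing also the genes that rose. Results on a few marker genes are not reported here.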

Additional observations from a re-analysis of the deposited data

Results flagged for a closer look

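Of the 46 groups of 4 libraries examined for the 23 members with values in every library, 1 held a library far from the others: Slc43a3 in static replicate 1, at 1.91 CPM, against 0.756, 0.834 and 0.78 CPM in the other static libraries. The gap to the nearest took 0.933 of the group's range, above Dixon's critical value for 4 samples at the 95% level. Chance flags about 1 in 20 such groups. This library made the groups of Slc43a3 overlap.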

How the results depend on the processing

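The median log2 fold change of the members was 0.13 with upper quartile factors, 0.22 with library totals, 0.20 with FPKM, -0.10 with no filter on low counts and between 0.01 and 0.13 without single libraries. With the replicate block 5 members fell, and with no filter 6 fell. With a mean of at least 5 CPM, which tests 21 members, 5 rose. Without single libraries between 5 and 8 rose and between 3 and 5 fell, and between 4660 and 5518 of all genes were called. Signs that flipped were those of uncalled members: Slc7a2 (0.08 with upper quartile factors, 0.16 with library totals, 0.13 with FPKM, -0.26 to 0.14 without single libraries), Slc38a7 (0.02, 0.11 and 0.09), Slc38a9 (0.06, 0.15 and 0.17, and -0.17 to 0.07 without single libraries), Slc38a10 (0.13, 0.22 and 0.23, 0.04 at 5 CPM, 0.00 with the replicate block, and -0.07 to 0.05 without single libraries), Slc3a2 (0.04 with library totals, 0.02 with FPKM), Slc6a13 (0.20 with FPKM), Slc38a3 (0.06 with FPKM), Slc7a4 (0.04 with library totals), Slc1a2 (0.12 with upper quartile factors, 0.21 with library totals, -0.33 to 0.19 without single libraries) and Slc7a3 (0.06, 0.16 and 0.07 with FPKM, -0.35 to 0.14 without single libraries). Slc43a3 was not called with DESeq2 size factors (adjusted p = 0.0503), nor Slc6a8 with no filter (adjusted p = 0.051).

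Falls of amino acid breakdown numbered 6 with upper quartile factors, 4 with library totals or FPKM, 18 with DESeq2, 22 with the replicate block and between 7 and 13 without single libraries, and its rises between 1 and 2. Rises of mTORC1 sensing numbered 9 with library totals or FPKM. Those of the GCN2 and ATF4 response lay between 3 and 5 without single libraries, and those of other carriers numbered 1 at 5 CPM and with FPKM. The cause of these shifts was not tested. The filters at 5 CPM and for FPKM also leave a smaller number of genes. The replicate block changed the calls of Slc1a4, Slc7a6, Slc38a4 and Slc38a6 and no other member's. Members below about 1 CPM rest on few counts, and for them a difference was often not detectable at this depth.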
